A study of Botryllus schlosseri with 42 samples.

Results

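Fertile colonies of the colonial ascidian Botryllus schlosseri were compared between 2 stages of the weekly budding cycle, C2 against B2. The comparison rests on 6 of the 42 libraries of the series, 3 fertile libraries at each stage, taken by stage and fertility label. The 6 infertile libraries of the same stages were carried beside them as the background of the budding cycle, since they are of the same stages and labelled infertile. Each library was RNA of whole colonies, sequenced as read pairs and counted over 50106 contigs of an expressed sequence tag assembly. The titles name the fertile libraries Fert801, Fert841 and MixFert, and per the study's methods these are the genotypes SB801 and SB841 and a pool of SB802a, SB804 and SB722. The infertile libraries are named Infert001, Infert802 and MixInfert, for SB-BB-001, SB802d and a pool of SB831, SB645, SB714, SB841 and SB842. A single-genotype library is thus 1 genotype and a Mix library several, and SB841 is both a fertile genotype and a part of the infertile pool. The same genotypes were sampled at both stages, no treatment is named in the labels, and ages are not given in the sources used here.

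In Botryllus, all zooids of a colony pass together through blastogenesis, in which buds replace the adult zooids, and the cycle closes with the takeover at stage D, when the old zooids are resorbed. The zooids are hermaphrodites. Per the paper, their testes form sperm from stage A1 until stage B2, when mature sperm are shed. Oocytes grow and ripen in the primary buds, up to stage C2. Developing sperm make proteins found in few other cells, among them testis-specific kinases, the outer dense fibers and sheath of the flagellum, and ubiquitin ligase adaptors of the spermatid. Developing oocytes take up vitellogenin through receptors of the LDL receptor family and are surrounded by a coat that contains zona pellucida domain proteins.

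The 2 stages were tabulated separately as group means, so library values were solved from the means and the C2 values were put on the B2 scale. A value below is a normalized count on that scale, in which 1 read pair counts as 2. The libraries of a group are numbered by the size factor that scaled them, from large to small, which is not always the order of their read pairs. A number is not tied to a genotype or shared between stages. Library depth at B2 and C2 was 8468038 to 13533356 read pairs, counted over the contigs that have library values. The most abundant contigs have no library values, and they held 29.6% to 47.0% of the total of a group. Among the infertile libraries, library 1 of each stage held the highest value for most fertility genes of the study. This was so for 27 of the 32 tested at B2 and for 28 at C2. Over the flagellum and testis lists together it was highest for 59 of 81 contigs at B2 and for 53 at C2. Over all 38181 contigs tested it was highest for 12895 at B2 and for 13487 at C2. Whether library 1 of the 2 stages is the same genotype is not known, and counts are also given without both. Contig names come from parts of the study's lists for stages A1 to C1, which name 4967 contigs, 2134 of them after a human homolog. Its lists for C2 and D were not used. Those lists favor contigs that differ between fertile and infertile colonies. The names used here thus leave out contigs listed only at C2 or D. The gene lists below were drawn from these names, so their counts lower at C2 are not independent evidence. In whole colonies, fewer cells of a type and less RNA per cell cannot be told apart.

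Across the transcriptome, few contigs differed by 4-fold or more between the stages, and in fertile colonies more of these were lower at C2 than higher. By the authors' group means, 353 of 36807 contigs (0.959%) were at least 4-fold higher at C2 in fertile colonies and 865 (2.35%) at least 4-fold lower. In infertile colonies the same ratio gave 299 contigs (0.812%) higher and 378 (1.03%) lower. With the library values, 38181 contigs had a mean of at least 10 normalized counts and entered a limma test at a 10% false discovery rate (FDR), made on log2(normalized count + 1). The fit of all 12 libraries called 3 contigs higher at C2 (0.00786%) and 0 lower. At an unadjusted p under 0.05 it held 856 contigs higher (2.24%) and 673 lower (1.76%), and limma voom also called 3 higher and 0 lower. In infertile colonies 0 contigs were called, with 839 at an unadjusted p under 0.05 (2.2%), and the difference between the fertile and the infertile change was called for 0 contigs, with 582 at that level (1.52%). The p-values measure only the spread between these libraries, and libraries of 1 genotype at both stages were treated as independent.

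The count of contigs called lower at C2 differed with the libraries in the fit. When only the 6 fertile libraries were fitted, limma called 138 contigs lower (0.361%) and 13 higher (0.034%). Without infertile library 1 of each stage, an alternative chosen after seeing the data, the fit called 191 lower (0.5%) and 24 higher (0.0629%). Of the 138 contigs lower at C2, 126 were also called in that fit. Their median log2 difference was -5.62 in fertile colonies and 0.27 in infertile colonies, where 81 of the 138 were higher at C2 and 57 lower. In every one of the 138, each fertile C2 library lay below each fertile B2 library. The 138 were called on these same fertile libraries, which both fits share, so neither the separation nor the 126 is independent evidence. Without regard to a test, the fertile libraries did not overlap for 2511 contigs higher at C2 (6.58%) and 1561 lower (4.09%), and among the 4086 tested contigs with a listed name these shares were 4.99% and 13.2%. The infertile libraries did not overlap for 1246 contigs higher at C2 (3.26%) and 756 lower (1.98%), and for 3.11% and 1.84% of those with a listed name. In the fit of the 6 fertile libraries, 131 of the 138 contigs called lower and 3 of the 13 called higher have a listed name.

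**Figure D1:**
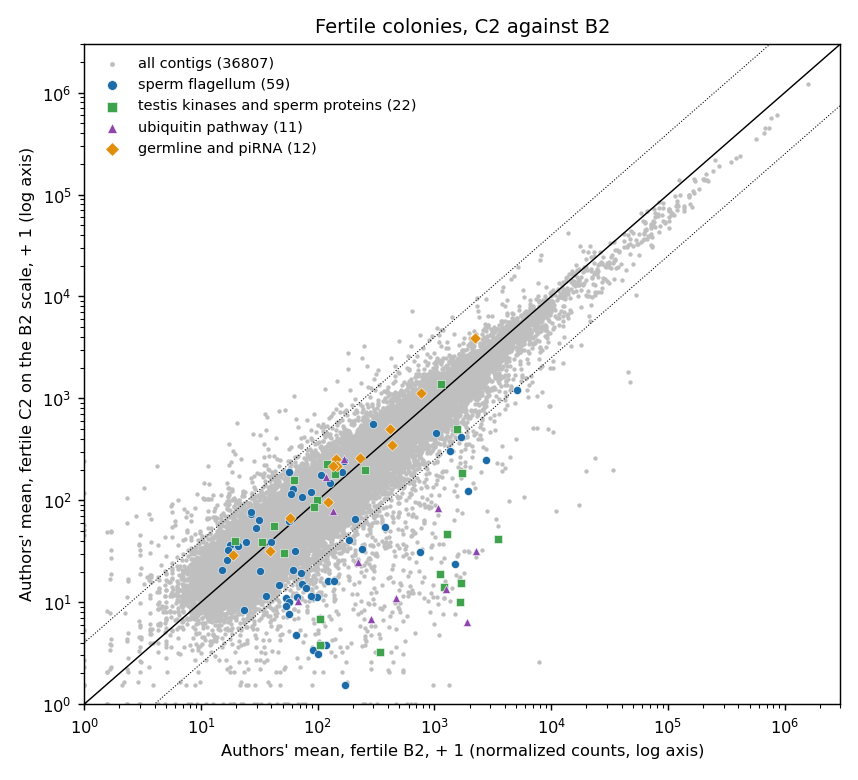
Authors' means of 36807 contigs in fertile colonies at stage B2 (x axis) and at stage C2 on the B2 scale (y axis), as normalized count + 1 on log axes; colored markers are the tested contigs of 4 gene lists, the solid line marks equal means and the dotted lines 4-fold differences. The 12 germline and piRNA contigs lie between the dotted lines, while many contigs of the flagellum, testis and ubiquitin lists lie below the lower one, at lower C2 values.

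The 3 contigs called in the fit of 12 libraries were all higher at C2, and none of them has a listed name. Bot_rep_c58432 held 615, 584 and 669.7 normalized counts in the fertile libraries at B2 and 3031, 3738 and 3021 at C2, which was 5.24-fold higher (log2 difference 2.38 ± 0.26 SE, limma adjusted p = 0.0582). CAP3_round1_contig_563 held 70.0, 88.1 and 116 at B2 and 599.6, 883 and 603 at C2, 7.60-fold higher (2.92 ± 0.36, limma adjusted p = 0.0813). Bot_rep_c58495 held 669, 611 and 712 at B2 and 2375, 2344 and 2277 at C2, 3.51-fold higher (1.81 ± 0.23, limma adjusted p = 0.0813). Each of the 3 was tightly spread within a stage, with no overlap between the stages. Their infertile libraries did not overlap either, with C2 2.28-fold, 4.57-fold and 1.81-fold higher in the same order. The difference between the fertile and infertile changes was not called for any of them.

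The testis-specific serine kinases, which phosphorylate proteins of late spermatids in mammals, had lower values in every fertile C2 library than in any fertile B2 library for tsk-1, tsk-2 and tsk-6, and none of the 3 was called in the fit of 12 libraries. For tsk-1 (Bot_rep_c45338), the fertile libraries held 4476, 1749 and 4342 normalized counts at B2 and 75.5, 24.4 and 23.4 at C2. Every C2 library lay below every B2 library, and the means differed 85.7-fold (log2 difference -6.48 ± 1.59 SE, limma adjusted p = 0.369). In infertile colonies tsk-1 stood at 179.6, 17.0 and 10.3 at B2 and at 1098, 16.5 and 7.45 at C2, so that infertile library 1 at C2 was above all fertile C2 libraries. tsk-2 (Bot_rep_c36244) fitted the same description, with 240.1, 141 and 631 at B2 and 3.15, 1.63 and 1.95 at C2. The C2 values are 2 read pairs or fewer, at or under the floor of 3 pairs per library, so that tsk-2 was at least 65.5-fold lower. tsk-6 (CAP3_round1_contig_9899) kept more of its level, with 2825, 756 and 1618 at B2 and 168, 304 and 80 at C2, 9.41-fold lower (-3.23 ± 1.12, limma adjusted p = 0.832). Another pair of contigs was named after human testis-specific serine/threonine-protein kinase 1. One of them, Bot_rep_c45613, was 179.9-fold lower and the other, Bot_rep_c35291, was 93.1-fold lower. Contigs of one kinase family can share reads, so that the values of its members are not fully separate. By in situ hybridization the paper also located tsk-2 RNA, unexpectedly, in stage 2 oocytes at B1 and B2, so tsk-2 is not a marker of the testis alone.

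The list of testis kinases and sperm proteins held 22 contigs, all of them tested. In 10 of the 22 (45.5%) every fertile C2 library lay below every B2 library, beside 4.09% of all contigs and 13.2% of those with a listed name, and in 1 it lay above. Limma called 0 of the 22 in the fit of 12 libraries and 7 as lower in the fit of the 6 fertile libraries. The latter fit called 131 of the 4086 contigs with a listed name as lower, and 138 of all 38181. The median log2 difference of the list was -1.12, or -1.20 with contigs at the floor set to their bound, beside 0.10 over all contigs tested, and in infertile colonies it was 0.34. Leaving out 1 library moved the median to between -2.35 (without fertile B2 library 2) and -0.14 (without fertile B2 library 1). Spermatogenesis-associated protein 21 (Bot_rep_c56365) held 1899, 782 and 2371 at B2 and 18.9, 13 and 11.7 at C2, 116-fold lower. Serine racemase (Bot_rep_c35625), an enzyme that makes D-serine, held 870.4, 735 and 1709.9 at B2 and 18.9, 11.4 and 23.4 at C2, 61.8-fold lower. The contig that went the other way was named after spermatogenesis-associated protein 17 (CAP3_round1_contig_5917), with 45.0, 45.1 and 93.6 at B2 and 94.4, 138 and 242 at C2. Both spermatogenesis-associated proteins were separated between the stages without overlap, in opposite directions.

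**Figure D2:**
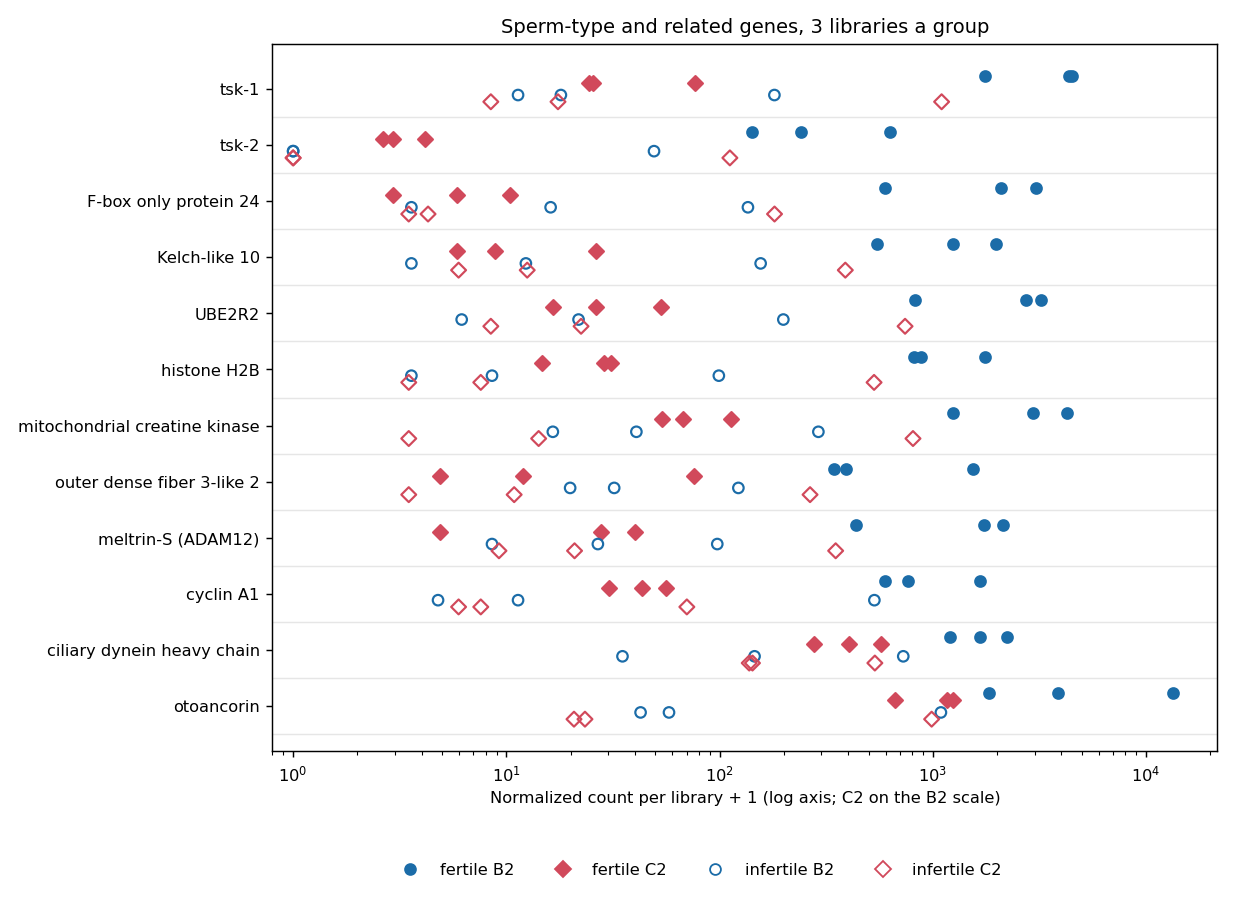
Sperm-type and related genes, 1 row per gene, with the normalized count + 1 of each library at B2 and C2 on a log x axis (C2 on the B2 scale); filled markers are fertile and open markers infertile libraries, 3 per group. In fertile colonies tsk-1 lies between 1749 and 4476 at B2 and between 23.4 and 75.5 at C2, and 1 infertile C2 library, at 1098, lies to the right of all fertile C2 markers.

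Of 63 contigs for structural genes of the sperm flagellum, 59 were tested. In 30 of them (50.8%) the fertile C2 libraries lay below the B2 libraries, in 4 (6.78%) above, and the rest overlapped. Over all contigs these shares were 4.09% and 6.58%, and over those with a listed name 13.2% and 4.99%. Limma called 0 of them in the fit of 12 libraries and 4 as lower in that of the 6 fertile libraries. Among the 4086 contigs with a listed name, the fit of the fertile libraries called 131 as lower. Nothing is read from the 4. The median log2 difference was -1.62 in fertile colonies and 0.65 in infertile colonies. Outer dense fiber protein 3B (CAP3_round1_contig_7529), from the sheath around the flagellar axoneme, held 4147, 1238 and 2905 at B2 and 282, 224 and 236 at C2, 11.2-fold lower (-3.32 ± 0.75, limma adjusted p = 0.314). Outer dense fiber 3-like 2 (Bot_rep_c45410) was more scattered, with 342, 392 and 1533 at B2 and 11, 74.8 and 3.90 at C2, 25.3-fold lower. Fibrous sheath-interacting protein 2 (CAP3_round1_contig_4558) held 1864, 1075 and 2921 at B2 and 146, 128 and 95.6 at C2, 15.8-fold lower. All 3 of these genes separated the stages without overlap.

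Coiled-coil domain-containing protein 151 (CAP3_round1_contig_2140), which helps to dock dynein arms on the axoneme, held 188, 54.8 and 269 at B2. At C2 it held 1.57, 0 and 0, at or under 1 read pair, and was at least 33.1-fold lower. Axonemal dyneins are also motors of cilia, which ascidian zooids have outside the testis, in the branchial basket. Ciliary dynein heavy chain 9 (CAP3_round1_contig_2349) held 1654, 1205 and 2215 at B2 and 404, 572 and 275 at C2, a smaller difference of 4.05-fold (-2.04 ± 0.92, limma adjusted p = 1). A contig of axonemal dynein heavy chain 17 (Bot_c10485) was 3.38-fold higher instead, from 93.4, 27.4 and 46.8 at B2 to 214, 130 and 222 at C2. The summed level of the flagellum list was 26927, 10435 and 24482 in the fertile B2 libraries and 5963, 6000 and 5387 in the fertile C2 libraries. It thus lay lower in every C2 library, and at C2 infertile library 1, with 7607, was above all of them.

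Genes of the ubiquitin pathway, which marks proteins for degradation, were among the genes with large ratios. Of 11 tested contigs among 13 on the list, 8 (72.7%) were lower in every fertile C2 library than in every B2 library and 0 higher. Beside this, 4.09% of all contigs and 13.2% of those with a listed name were lower without overlap. The median log2 difference of the list was -3.77, against 0.07 in infertile colonies. Limma called 0 in the fit of 12 libraries and 4 as lower in that of the 6 fertile libraries, where 131 of 4086 contigs with a listed name were called lower. Kelch-like 10 (Bot_c2674), a substrate adaptor of a ubiquitin ligase needed for spermatid maturation in mice, held 1237, 547 and 1981 at B2 and 25.2, 4.88 and 7.81 at C2, 99.4-fold lower (-6.64 ± 1.59, limma adjusted p = 0.356). A second contig named Kelch-like protein 10 (Bot_c12760) was 46.9-fold lower. F-box only protein 24 (Bot_c25439), of the family of substrate receptors of SCF ligases, held 3029.9, 594 and 2084 at B2 and 9.44, 4.88 and 1.95 at C2. Leaving aside bounds, this was the largest ratio of the fertility genes, 351-fold lower (-8.10 ± 1.57, limma adjusted p = 0.229). Ubiquitin-conjugating enzyme E2 R2 (CAP3_round1_contig_8583) held 2738, 825 and 3206 at B2 and 25.2, 52.0 and 15.6 at C2, 72.9-fold lower. None of these 4 contigs overlapped between the stages in fertile colonies, and all 4 overlapped in infertile colonies.

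Kelch-like protein 13 (Bot_c16304), another adaptor of this kind that is not on the list, held 557, 149 and 548 at B2 and 7.87, 3.25 and 7.81 at C2, 66.2-fold lower. It is among the 10 named contigs with the smallest p on the lower side. The first of these was AMP deaminase 2 (Bot_c129), an enzyme of purine nucleotide metabolism, with 915, 251 and 692 at B2 and 18.9, 17.9 and 19.5 at C2. Its C2 values were nearly equal, and it was 33-fold lower (-4.78 ± 0.71, limma adjusted p = 0.113). ADP-ribosylation factor 6 (Bot_c2976), a small GTPase of membrane traffic, held 187, 50.9 and 140.5 at B2 and 3.15, 0 and 0 at C2, which was at least 24.5-fold lower. Infertile colonies listed it at 0 in all B2 libraries and at 16.9, 1.65 and 4.97 at C2. Sjoegren syndrome nuclear autoantigen 1 (CAP3_round1_contig_3027), a centrosome and basal body protein, was at least 38.3-fold lower, from 364, 64.6 and 163 to 3.15, 1.63 and 0. Contigs named after 3 uncharacterized human proteins, C21orf56, C17orf105 and C1orf88, were 131-fold, 48.9-fold and 56.6-fold lower. No library overlapped between the stages in any of these contigs.

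On the fertility list, isocitrate dehydrogenase beta (Bot_c2928), a subunit of a mitochondrial citric acid cycle enzyme, held 2853, 578 and 786 at B2 and 31.5, 3.25 and 3.90 at C2, 109-fold lower (-6.96 ± 1.42, limma adjusted p = 0.277). Mitochondrial creatine kinase (Bot_rep_c35370), which hands energy from mitochondria to sites of use, held 4245, 1242 and 2949.6 at B2 and 112, 66.6 and 52.7 at C2, 36.5-fold lower. Erythrocyte band 7 protein (Bot_rep_c36004), a stomatin of the plasma membrane, held 849, 799 and 2426 at B2 and 15.7, 8.13 and 3.90 at C2, 147-fold lower. The stages did not overlap in these 3 genes, and each was among the contigs called lower in the fit of the 6 fertile libraries. Tetraspanin-8 (Bot_c16543) and P-selectin (Bot_c13044), both cell surface proteins, differed less, by 5.65-fold and 3.77-fold, also without overlap.

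The 33 fertility genes as a group mostly had lower values at C2. The study had picked them on these same samples for their levels in fertile colonies, so their direction is not independent evidence. Of the 32 that were tested, 28 had a log2 difference below zero in fertile colonies, and 17 had one above zero in infertile colonies. Over all 38181 contigs tested these counts were 16510 and 20542, so the infertile count is near that of all contigs. In 21 of the 32 (65.6%) the fertile C2 libraries lay below the B2 libraries, in 1 they lay above and in 10 they overlapped. The share below was 4.09% over all contigs and 13.2% over those with a listed name. Limma called 0 of them in the fit of 12 libraries, 12 as lower in the fit of the 6 fertile libraries and 13 without infertile library 1 of each stage. Among the 4086 contigs with a listed name, the same fits called 0, 131 and 181 as lower. Their median log2 difference was -2.75 in fertile colonies and 0.22 in infertile colonies. At B2, every fertile library lay above every infertile library for 28 of the 32, and at C2 for 8. Over all 38181 contigs this was so for 1826 at B2 and for 2984 at C2. Where C2 lay below B2, an infertile C2 library was above all fertile C2 libraries for 17 of the 21. Over all contigs tested this held for 1322 of 1561, a similar share. The part of infertile library 1 in this was not tested. It was the highest infertile C2 library for 28 of the 32 genes, and for 13487 of all 38181 contigs.

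Chromatin and cell cycle genes split by gene. Histone H2B (CAP3_round1_contig_5576) held 879, 813 and 1749 at B2 and 29.9, 27.6 and 13.7 at C2, 48.3-fold lower (-5.52 ± 1.66, limma adjusted p = 0.612). Cyclin A1 (CAP3_round1_contig_4222), a germ cell cyclin needed for male meiosis in mice, held 1654, 594 and 761 at B2 and 55.1, 42.3 and 29.3 at C2, 23.8-fold lower. Both genes separated the stages without overlap. Cyclin B3 (CAP3_round1_contig_7272), a cyclin with a role in female meiosis in mice, was 3.10-fold lower, from 1768, 762 and 1191 to 428, 453 and 318 (-1.56 ± 0.36, limma adjusted p = 0.334). Histone H1.0 (CAP3_round1_contig_7511) overlapped between the stages, with 3233, 742 and 999 at B2 and 1161, 1975 and 519 at C2. The 14 tested histone contigs had a median log2 difference of -0.28 and the 15 tested cell cycle contigs one of 0.24, with 2 below B2 without overlap on each list, and 1 and 2 above. Most of both lists therefore did not share the pattern of H2B and cyclin A1. Of contigs with a listed name, 13.2% were lower without overlap and 4.99% higher.

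**Figure D3:**
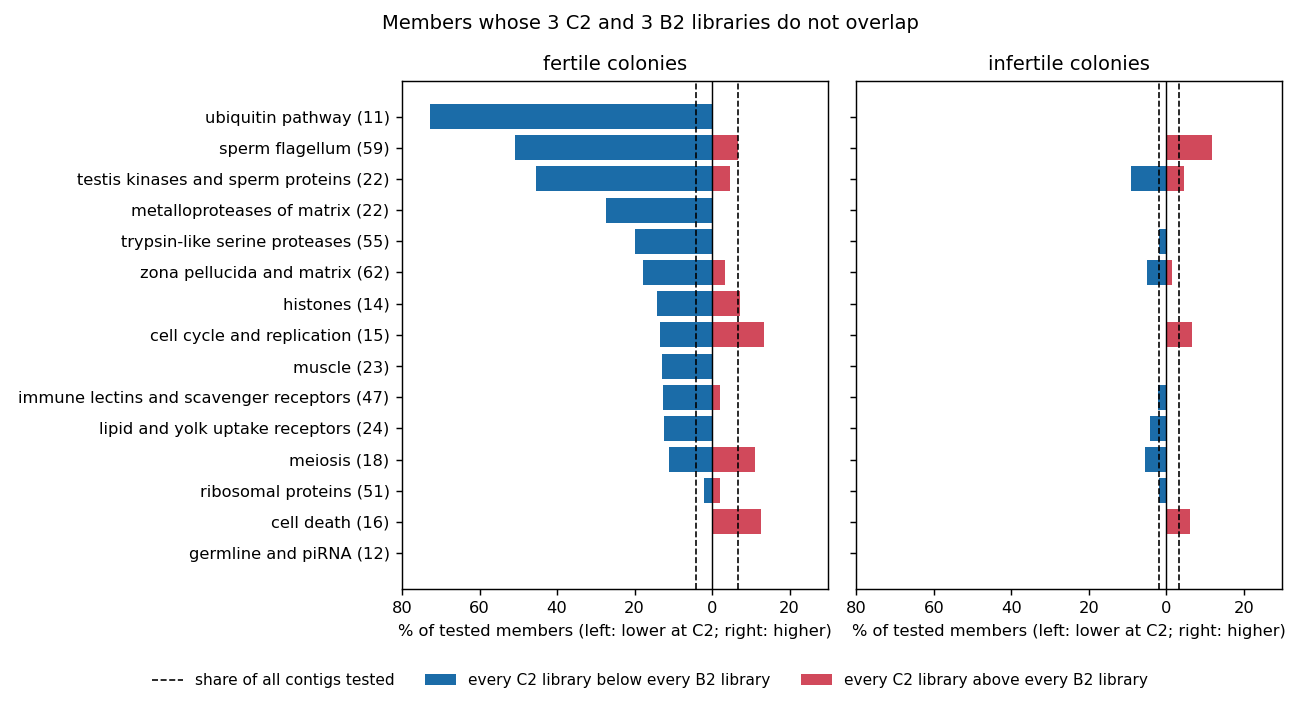
Gene lists, with the number of tested contigs in brackets, by the percent of their contigs (x axis) whose 3 C2 libraries all lay below (blue, to the left) or all above (red, to the right) the 3 B2 libraries, in fertile and in infertile colonies; dashed lines mark these shares over all contigs tested. In fertile colonies the ubiquitin, flagellum and testis lists reach 72.7%, 50.8% and 45.5% below B2, where all contigs have 4.09%.

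ADAM12, a metalloprotease with a disintegrin domain, is on the fertility list with 2 contigs. One of them (CAP3_round1_contig_6892) held 5211, 1232 and 6685 at B2 and 148, 135 and 7.81 at C2, 45.2-fold lower (-5.96 ± 1.44, limma adjusted p = 0.356). The second, meltrin-S (CAP3_round1_contig_7986), held 2138, 433 and 1730.3 at B2 and 26.8, 39 and 3.90 at C2, 61.7-fold lower. A contig named ADAM19 by its full name, disintegrin and metalloproteinase domain-containing protein 19 (Bot_rep_c49441), held 330.2, 104 and 556 at B2 and 3.15, 1.63 and 1.95 at C2, at least 64.1-fold lower. These ADAM contigs did not overlap between the stages. Tolloid-like 1 (Bot_c3513), a protease that processes procollagens, overlapped, with 88.4, 19.6 and 87.5 at B2 and 61.4, 112 and 35.1 at C2. Of the 22 tested metalloprotease contigs, 6 (27.3%) were lower without overlap and 0 higher, beside 13.2% and 4.99% of contigs with a listed name, with a median log2 difference of -0.60 (between -1.13 and -0.03 with 1 library left out).

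Trypsin-like serine proteases, a family with digestive and plasma members, held a median log2 difference of -0.88, and 11 of 55 tested contigs (20%) were lower at C2 without overlap, against 0 higher. The shares lower were 4.09% over all contigs and 13.2% over those with a listed name, so that the 20% is close to the latter. A contig named chymotrypsinogen B (Bot_c16350) held 694, 415 and 733 at B2 and 12.6, 11.4 and 9.76 at C2, 54.6-fold lower (-5.61 ± 1.34, limma adjusted p = 0.356). Contigs named plasminogen held 677, 284 and 861 at B2 and 22.0, 39 and 17.6 at C2 (Bot_c499, 23.2-fold lower), and 1241, 253 and 1423 at B2 and 12.6, 21.1 and 7.81 at C2 (Bot_c298, 70.2-fold lower). All 3 separated the stages. The list as a whole did not: its summed level was 186124, 18298 and 12926 at B2 and 111249, 7283 and 8463 at C2, with 1 library at each stage far above the others. Its median was 0.12 without fertile B2 library 1 and 0.25 without fertile C2 library 2, so that the direction of the list rests on single libraries.

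The yolk genes overlapped between the stages, and zp-1 was higher at C2. The vitellogenin contig vtg-1 (CAP3_round1_contig_5534), the yolk protein precursor, was the most abundant of the fertility genes. By the authors' means it stood at 44523 in fertile colonies at B2 and 30737 at C2, 1.45-fold lower, and at 74.6 and 274 in infertile colonies. The fertile B2 mean could be split in 2 ways, into 38698, 19747 and 75124 or into 80471, 25146 and 27953, and the C2 libraries held 36223, 20088 and 35901. Both ways overlap with C2, and the contig was not tested for that reason. The receptor ldlr (Bot_rep_c45532), of the family that takes up yolk, held 1199, 925 and 1266 at B2 and 387, 941 and 989 at C2, 1.46-fold lower with overlap (-0.65 ± 0.59, limma adjusted p = 1). Infertile colonies held at most 9.88 normalized counts of ldlr in any library at either stage. For both yolk genes every fertile C2 library lay above every infertile C2 library. The paper located vitellogenin RNA in follicle cells around the testes as well as on maturing eggs, so vtg-1 is not a marker of eggs alone.

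The zona pellucida gene zp-1 (Bot_c16824), related to proteins of the egg coat, was the fertility gene that lay higher at C2 without overlap. Its fertile libraries held 71.7, 76.4 and 169 at B2 and 176, 514 and 868 at C2, 4.91-fold higher (2.12 ± 0.90, limma adjusted p = 1), while infertile libraries held at most 7.69. Microfibrillar-associated protein 4 (Bot_c1378), an extracellular matrix protein with a fibrinogen-like domain, had the larger ratio, 6.45-fold higher (3.53 ± 1.25, limma adjusted p = 0.891). Its fertile libraries held 10, 131 and 425 at B2 and 392, 1162 and 2102 at C2, and overlapped only in the highest B2 and the lowest C2 library. Hemicentin-2 (CAP3_round1_contig_2219), also a matrix protein, was 3.17-fold higher, from 6.67, 7.84 and 20.4 to 37.8, 26.0 and 46.8, and its infertile libraries were 2.05-fold higher. Otoancorin (CAP3_round1_contig_9042) went the other way, with 13427, 1835 and 3849 at B2 and 1248, 1160.4 and 663 at C2, 6.22-fold lower without overlap. Of 62 tested contigs of zona pellucida and matrix proteins, 11 (17.7%) were lower without overlap and 2 higher, near the 13.2% and 4.99% of contigs with a listed name, and limma called 0 in the fits of 12 and of 6 libraries.

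**Figure D4:**
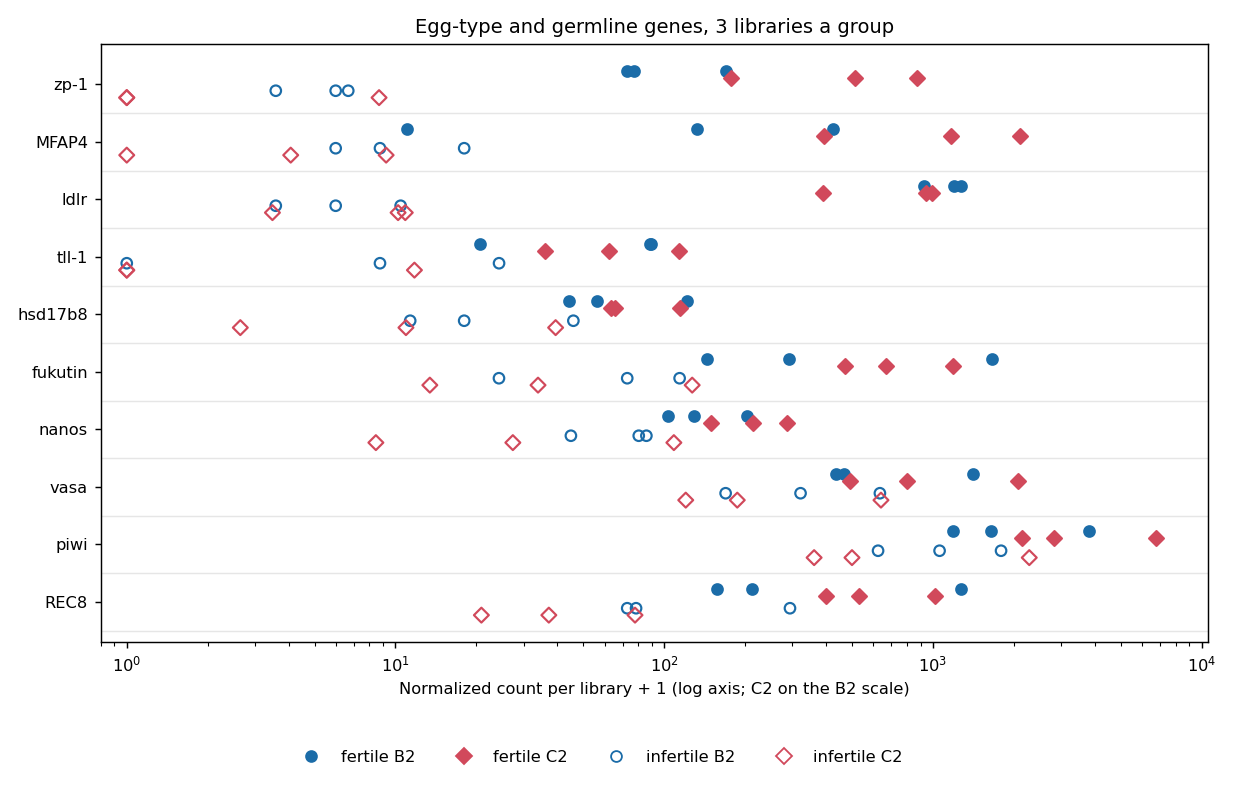
Egg-type and germline genes, 1 row per gene, with the normalized count + 1 of each library at B2 and C2 on a log x axis (C2 on the B2 scale); filled markers are fertile and open markers infertile libraries, 3 per group. Fertile zp-1 lies between 71.7 and 169 at B2 and between 176 and 868 at C2, while the fertile markers of ldlr, nanos, vasa, piwi and REC8 overlap between the stages.

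The remaining fertility genes overlapped between the stages. Fukutin (Bot_rep_c50436), a protein of the glycosylation of dystroglycan, held 1661, 143 and 291 at B2 and 669, 1191 and 468 at C2. ABCB5 (Bot_c2465), a membrane transporter, held 1828, 568 and 1093 at B2 and 617, 853 and 406 at C2. Tubulin beta-4B (CAP3_round1_contig_9460) held 7552, 3738 and 8206 at B2 and 3669, 5267 and 2203 at C2, with the means 1.75-fold apart. Their means differed by less than the range of the libraries. Retinol dehydrogenase 12 (Bot_c25254), a cyclic nucleotide-gated olfactory channel (Bot_rep_c36144) and hemicentin-1 (Bot_c1197) had means 4.32-fold, 3.83-fold and 4.46-fold lower at C2, with fertile B2 library 1 the highest of the 6 fertile libraries in each. The steroid dehydrogenase gene hsd17b8 (Bot_c2901) stood at 55.0, 43.1 and 120.1 at B2 and 64.5, 113.8 and 62.4 at C2.

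Markers of germ cells and of the piRNA pathway, which silences transposons in the germline, overlapped between the stages. The gene piwi (Bot_c34775) held 1182, 1639.6 and 3821 at B2 and 2819, 6771 and 2152 at C2, 1.77-fold higher (0.82 ± 0.73, limma adjusted p = 1). The RNA helicase gene vasa (CAP3_round1_contig_8235) held 465, 433 and 1403 at B2 and 796, 2077 and 489.8 at C2, 1.46-fold higher. The translational regulator nanos (Bot_c494) held 202, 102 and 128 at B2 and 212, 286 and 148 at C2, 1.498-fold higher. All 3 genes overlapped between the stages, with higher means at C2. None of the 12 tested contigs of this list separated the stages, and its median log2 difference was 0.55, against -0.53 in infertile colonies. Its summed level was 3183, 3060 and 7900 in fertile B2 libraries and 5066, 12165 and 3899 in fertile C2 libraries.

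Among genes of meiosis, REC8 (Bot_c5114), the cohesin subunit of meiotic chromosomes, overlapped, with 1269, 157 and 212 at B2 and 529, 1016 and 400.0 at C2. MutS protein homolog 4 (CAP3_round1_contig_1370), a crossover protein, was 4.27-fold higher at C2, from 6.67, 3.92 and 28.5 to 31.5, 104 and 31.2. A boule-like gene (CAP3_round1_contig_4110), of the DAZ family of germ cell RNA-binding proteins, was 2.43-fold higher, from 370.2, 123 and 289 to 488, 1047 and 371. These were the 2 contigs of the 18 tested on the list that lay higher at C2 without overlap, and cyclin A1 and cyclin B3, described above, were the 2 that lay lower. Among contigs with a listed name 13.2% were lower and 4.99% higher, and nothing is read from these counts. The median log2 difference of the list was 0.23 in fertile colonies and -0.51 in infertile colonies, and 1 contig, cyclin A1, was called in the fit of the 6 fertile libraries.

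Among named contigs higher at C2, several were also higher in infertile colonies. Caveolin-3 (Bot_rep_c38194), a coat protein of membrane pits in muscle, held 15.0, 31.3 and 12.2 at B2 and 445, 622 and 636 at C2, 29.1-fold higher (4.89 ± 0.69, limma adjusted p = 0.113). In infertile colonies its mean was 5.30-fold higher, with overlap. Ankycorbin (Bot_c27360), an ankyrin repeat and coiled-coil protein, held 0, 0 and 2.04 at B2 and 118, 167 and 242 at C2, at least 31.0-fold higher, while 2 of the 3 infertile C2 libraries had no reads and the third had 11.5. Tyrosine-protein kinase Mer (Bot_c3042), a receptor for the uptake of dying cells, was 15.1-fold higher, from 11.7, 11.8 and 4.07 to 92.9, 132 and 191. Its infertile mean was 3.31-fold higher, with overlap between the stages. In all 3 genes the fertile stages did not overlap, and the difference between the fertile and infertile changes was not called.

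Caspase-2 (Bot_c10337), a protease of cell death, held 10, 7.84 and 18.3 in fertile B2 libraries and 64.5, 130 and 52.7 in fertile C2 libraries, 6.84-fold higher (2.65 ± 0.53, limma adjusted p = 0.255). The infertile libraries went from 21.6, 15.1 and 28.4 to 75.3, 138 and 114.3, 5.03-fold higher, so that the caspase-2 groups were separated in both kinds of colony. Contigs named after the uncharacterized human protein C21orf63 took 4 of the 10 places with the smallest p among named contigs higher at C2. They were 9.35-fold to 13.6-fold higher in fertile colonies and 6.58-fold to 15.8-fold higher in infertile colonies, without overlap in either. Tubulin beta-2C was 3.88-fold higher in fertile and 1.81-fold higher in infertile colonies, also without overlap. Leucine-rich repeat-containing protein 40 (Bot_rep_c52982) was 5.49-fold higher in fertile colonies, from 494, 327 and 124 to 1309, 1115 and 2763, and overlapped in infertile colonies. The 16 tested contigs of cell death genes had a median log2 difference of 0.52 in fertile and 0.02 in infertile colonies. Of them 2 (12.5%) were higher without overlap in fertile colonies and 0 lower, beside 4.99% and 13.2% of contigs with a listed name. Of the 13 contigs called higher in the fit of the 6 fertile libraries, 12 were also higher at C2 in infertile colonies.

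Markers of other tissues of the colony are given by their lists. The 23 tested muscle contigs had a median log2 difference of -0.49 and summed to 8313, 9790 and 8904 at B2 and 6527, 6382 and 4646 at C2, lower in every C2 library. With 1 library left out, the muscle median ranged from -1.84 (without fertile B2 library 1) to 0.18 (without fertile C2 library 3), so that its direction rests on single libraries. The 47 tested immune lectins and scavenger receptors, genes of blood cells among other tissues, had a median of -0.52 and summed to 29303, 12688 and 14129 at B2 and 16618, 11574 and 7633 at C2, with overlap. Ribosomal proteins, present in all cells, had a median of -0.08 over 51 contigs, and receptors for lipid and yolk one of -0.16 over 24. The list called vitellogenin-like here holds contigs matched to an uncharacterized Ciona protein, LOC100177400, and was not tested for being yolk protein RNA. Its 4 tested contigs had a median of -0.23. They summed to 93047, 34750 and 47792 at B2 and 46904, 35340 and 47586 at C2 in fertile colonies. The highest infertile sum was 919. The part of these tissues in the results was not tested.

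**Figure D5:**
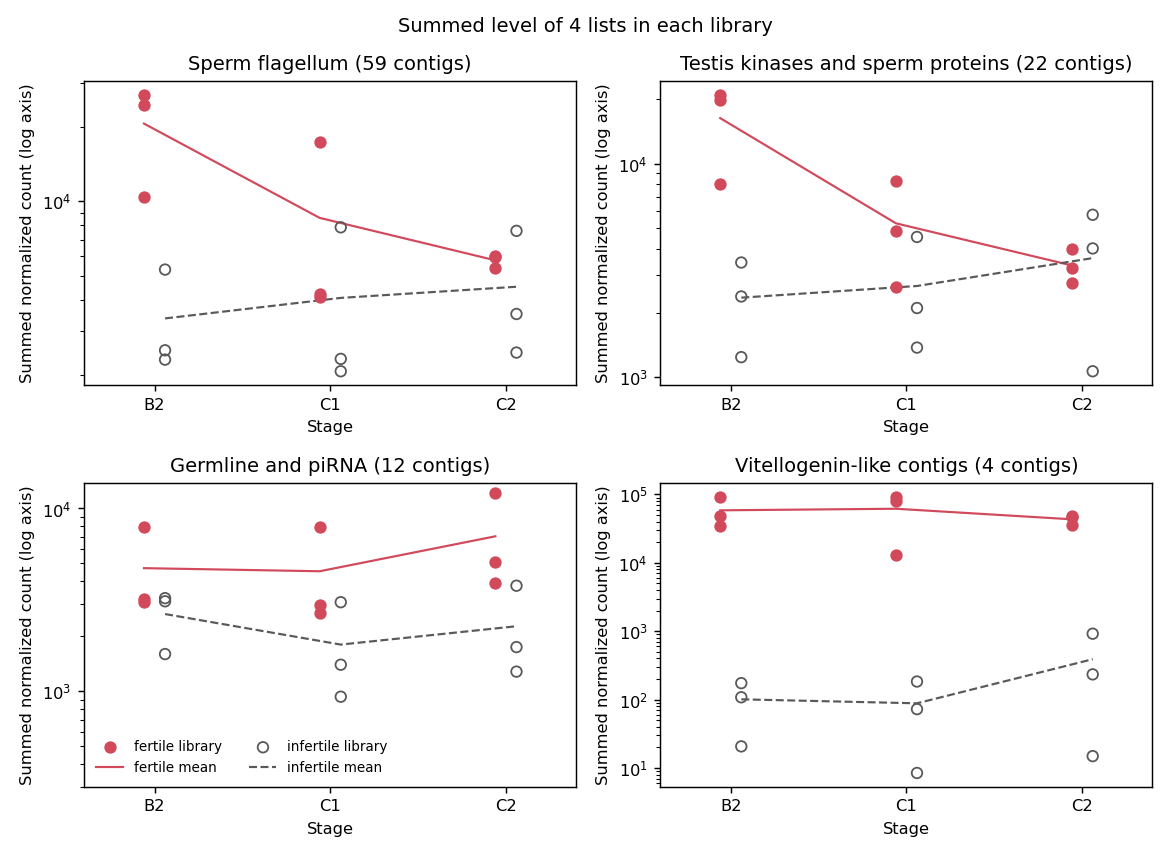
Summed normalized counts of 4 gene lists (log y axis, B2 scale) at stages B2, C1 and C2; points are libraries, 3 per group, and lines join the means of fertile (solid) and infertile (dashed) colonies. The fertile flagellum list sums to 10435 to 26927 at B2 and 5387 to 6000 at C2, with 1 of the 3 C1 libraries, at 17407, in the B2 range. Contigs called vitellogenin-like are those matched to an uncharacterized Ciona protein.

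Stage C1 lies between B2 and C2, and its libraries held between 4010125 and 14080838 read pairs in both kinds of colony. Contigs without library values hold 69.2% of the fertile C1 total, more than at B2 or C2. In fertile C1 libraries tsk-1 stood at 737, 532 and 1536, below every B2 library and above every C2 library. Kelch-like 10 stood at 104, 130 and 496 and F-box only protein 24 at 37.9, 43.3 and 1234, so that 1 C1 library reached into the B2 range for the latter. Of the 21 fertility genes lower at C2 without overlap, 14 had all C1 libraries above all C2 libraries. In 9 all C1 libraries lay below all B2 libraries, and 7 had both. Over all 1561 contigs lower without overlap these counts were 400, 360 and 87. Fertile C1 library 3 held the highest C1 value for 20 of the 21 and for 905 of the 1561. It was the shallowest of the C1 libraries, with 4010125 read pairs. The summed flagellum list was 4233, 4104 and 17407 at C1, with 1 library in the range of B2 and 2 below the range of C2. For zp-1 the C1 libraries held 26.7, 219 and 77.7, from below to above the B2 range, and for microfibrillar-associated protein 4 they held 104, 551 and 181.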

How the data were processed

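The members and gene lists of this comparison were chosen with earlier results of these data known. The authors trimmed the first 12 bases of each read, mapped read pairs with Bowtie 0.12.7 to an expressed sequence tag assembly, counted reads per contig with Sam2Counts (SAMtools 0.1.18) and normalized them within a stage with DESeq 1.10.1. The submitters' processing notes also name CASAVA 1.8.2, FastQC and RSEM 1.2.3, without a role. The deposited signal of a group is its mean of normalized counts over 3 libraries, at 15 significant digits; the authors' fold changes and p-values were not used.

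Library values were recovered here as whole read pairs whose weighted sum gives each mean, for means up to 50000 where 1 solution exists. In each of the 6 group columns of B2, C1 and C2 at least 99.7% of contigs had 1 solution, and 0 of 18000 decoy values were solved. Size factors computed from the recovered pairs were 0.998 to 1.003 times those used. No genotype was assigned to a library. Columns were scaled by their medians over the 36807 contigs whose mean was 10 or more at both stages (fertile 102.5 at B2 and 112.3 at C2, infertile 100.1 and 112.6).

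Limma 3.58.1 (R 4.3.3, trend) was fitted to log2(normalized count + 1) of 12 libraries with contrasts for the fertile change, the infertile change and their difference, and Benjamini-Hochberg adjustment over 38181 contigs. Fold changes on that scale understate the change of low contigs. An exact permutation test of 3 against 3 libraries cannot go below p = 0.1 and was not used. In libraries simulated for the fertile contrast over 38181 contigs (dispersion 0.25), 25 of 100 contigs changed 4-fold, 99 of 100 changed 16-fold and 9 of 37981 unchanged contigs were called. The simulation gave every contig the same dispersion and no library that stood apart from its group. Its shares therefore do not hold for contigs with a wider spread between libraries, such as tsk-1. A group with 3 read pairs or fewer in every library was taken as at the floor, and such folds are lower bounds for counting error only.

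Named are the 33 fertility genes of the study, hsd17b8, the nanos, vasa, piwi and REC8 contigs, the largest changes of 16 gene lists, and the 10 contigs per direction with the smallest p among those with a named human homolog. The reference gene table matched 0 contig names, and no contig sequences were used here. Python 3.11.15, numpy 2.4.6, pandas 2.3.3, numba 0.67.0 and matplotlib 3.10.9 were used.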

Additional observations from a re-analysis of the deposited data

How the results depend on the processing

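The number of contigs called between the stages differed widely with the settings. In fertile colonies the 3 calls of limma became 15 with a mean of at least 50 (7 higher and 8 lower), 1 with no filter on low values, 113 with a pseudocount of 10 (24 higher and 89 lower) and 0 at a 5% FDR. Fitting only the 6 fertile libraries gave 151, and leaving out infertile library 1 of each stage, chosen after seeing the data, gave 215. Leaving out 1 library at a time gave between 0 and 107, the 107 (20 higher and 87 lower) without infertile C2 library 1. The count was 0 without fertile B2 library 1, 2 or 3, fertile C2 library 3, infertile B2 library 3 or infertile C2 library 3. For infertile colonies it was between 0 and 1, the 1 without fertile B2 library 1, and for the difference between the changes it was 0 in every fit. The cause was not tested.

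Among 75 named contigs, the direction changed for 5, only where 1 library was left out. The range of the log2 difference was then -1.79 to 0.55 for retinol dehydrogenase 12, -0.076 to 0.65 for hsd17b8, -0.49 to 0.62 for tolloid-like 1, -0.79 to 0.30 for histone H1.0 and -0.071 to 1.05 for vasa. The list medians of the fertility, flagellum, testis, ubiquitin, metalloprotease, matrix and immune lists were below zero in every fit, and those of the germline, cell death and cell cycle lists above zero. Among these, the testis median ranged from -2.35 to -0.14. The sign turned for histones (-0.54 to 0.28), lipid receptors (-0.78 to 0.43), meiosis (-0.20 to 0.80), muscle (-1.84 to 0.18), trypsin-like proteases (-2.31 to 0.25) and vitellogenin-like contigs (-0.48 to 0.049). Scaling by the upper quartile moved the median of all contigs by 0.09 on the log2 scale. No paired analysis was made, because the group means used here name no libraries and a genotype was not read from the total of a library. The mapped reads of the samples in the study's supplement were not used. Depth limits the contigs at the floor at C2, for which only bounds are given.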
